A study of Mus musculus with 12 samples.

Results

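Histones are the proteins that package DNA into chromatin, and their genes were read here in whole tumours grown from GL261, a mouse glioblastoma cell line. The genes were taken by symbol, in the mostly clustered series H1f (H1), H2ac (H2A), H2bc (H2B), H3c (H3) and H4c (H4). A gene also needed a probe set of its own on the array. This gave 29 of the 22180 genes measured, with 8 of the linker histone H1, 6 of H2A, 8 of H2B and 7 of H4. Clustered H3 genes had 0 probe sets of their own, and appear below only through probe sets shared by several genes.

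GL261 cells were placed in the brains of male C57BL/6 mice aged 8 weeks, whose immune system is intact, and each tumour mass was collected on day 16. The TMZ group received temozolomide, an alkylating drug, at 30 mg/kg into the peritoneum. The Anti-PD-1 group received an antibody against PD-1, an inhibitory receptor of T cells, at 10 mg/kg into a vein with 2 injections per week. The Combination group received both, and the Control group neither. The labels state neither the days of dosing nor what Control mice were injected with. Each group has 3 arrays, which the labels do not assign to separate animals, so p-values measure the spread between arrays only.

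Most clustered histone genes are active only while DNA is copied. Their short messages end in a stem-loop in place of a poly(A) tail, Slbp binds that loop, and Npat drives their transcription as cells enter S phase. Some H1, H2A and H2B genes are instead germ-cell forms, and H1f10 (H1x) is made outside S phase with an ordinary polyadenylated message. Most of the genes lie in dense clusters, many of them in head-to-head pairs, and copies within a family are near-identical. The hybridisation signal of a single histone gene is therefore uncertain, since signal from a copy cannot be told apart from the gene's own.

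By the RefSeq annotation (GRCm38.p6), 21 members lay in the histone cluster of chromosome 13 and 5 in that of chromosome 3. H1f10 and H1f8, far apart on chromosome 6, and H1f7 on chromosome 15 lay outside these clusters. RefSeq gives a promoter window, 250 bases before to 50 after the start, for 27 of the 29 genes. The last 150 bases before the start are shown for the 3 genes with the largest differences (H2ac10, H2bc3 and H1f5), for a pair of further H2B genes, for H4c12 and for H1f10. Capitals mark ATTTGCAT (the octamer known from H2B promoters), CCAAT (the CCAAT box) and TATAAA (the TATA box), on either strand, so that ATTGG is a CCAAT box on the other strand.
H2ac10, chr13:23533725-23533874, plus strand: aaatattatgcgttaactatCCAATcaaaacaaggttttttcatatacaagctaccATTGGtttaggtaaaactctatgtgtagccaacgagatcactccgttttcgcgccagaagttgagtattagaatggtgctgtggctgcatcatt
H2bc3, chr13:23746584-23746733, plus strand: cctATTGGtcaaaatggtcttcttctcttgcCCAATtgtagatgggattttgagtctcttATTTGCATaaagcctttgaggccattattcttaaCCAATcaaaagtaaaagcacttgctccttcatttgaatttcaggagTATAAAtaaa
H1f5, chr13:21780626-21780775, minus strand: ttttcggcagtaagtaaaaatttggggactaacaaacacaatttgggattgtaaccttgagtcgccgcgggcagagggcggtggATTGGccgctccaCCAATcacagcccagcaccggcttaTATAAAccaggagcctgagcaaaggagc
H2bc18, chr3:96269550-96269699, plus strand: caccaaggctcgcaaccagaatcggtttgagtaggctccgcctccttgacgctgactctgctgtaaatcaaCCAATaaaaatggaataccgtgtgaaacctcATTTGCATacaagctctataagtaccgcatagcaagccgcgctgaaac
H2bc12, chr13:22035671-22035820, plus strand: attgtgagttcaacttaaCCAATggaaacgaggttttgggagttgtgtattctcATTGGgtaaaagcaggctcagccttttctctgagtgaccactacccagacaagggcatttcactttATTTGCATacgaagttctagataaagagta
H4c12, chr13:21750554-21750703, minus strand: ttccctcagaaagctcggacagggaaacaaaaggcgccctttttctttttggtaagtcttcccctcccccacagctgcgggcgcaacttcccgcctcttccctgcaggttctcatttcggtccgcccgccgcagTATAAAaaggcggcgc
H1f10, chr6:87981483-87981632, minus strand: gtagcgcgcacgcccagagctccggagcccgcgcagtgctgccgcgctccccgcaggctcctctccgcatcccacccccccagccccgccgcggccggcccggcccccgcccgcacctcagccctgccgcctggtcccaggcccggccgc

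These promoters differ by family. Over the full windows the octamer stood in 8 of the 27 histone genes (29.6%), against 1.74% of all 32851 promoter windows. It was found in 5 of 7 H2B and 3 of 6 H2A windows, and in 0 of 8 H1 and 0 of 6 H4 windows. The CCAAT box stood in 20 of 27 (74.1%, against 37.4% of all windows), which included every H2A and H2B window and 1 of 6 H4 windows. The TATA box stood in 16 of 27 (59.3%, against 13.6%). H2ac10 held 2 CCAAT boxes and none of the other letters searched, and the H1f10 window held none of the 3. H2ac12 and H2bc12 are a head-to-head pair whose starts lie 178 bases apart, so that their windows overlap and hold one and the same octamer. The same holds for H2ac1 and H2bc1, whose starts lie 281 bases apart. Such a match is a description of letters, not of a factor's binding.

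Array signals are given in log2 units after RMA, the authors' normalization, so that a difference of 1 is a doubling. Most histone genes were dim. The mean signal over the 12 arrays lay above that of the median gene (5.72) for 7 of the 29 and among the lowest 25% of all genes for 17. H4c12 had the highest, at 10.40, followed by H2ac10 (7.91), H1f10 (7.64), H2ac21 (7.02), H1f2 (6.48), H2ac20 (6.01) and H2bc3 (5.74). The dimmest was H2bc1, a germ-cell H2B, at 1.97. Probe sets respond differently, so this order is one of signals and not of transcript amounts. Dim probe sets are known to understate differences.

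The arrays resembled each other closely, with pairwise correlations between 0.984 and 0.991 and medians between 5.06 and 5.12. Control replicate 3 stood apart from the other Control arrays: on the first principal component of all genes it lay at -1.28, against -20.1 and -26.4 for Control replicates 1 and 2, while the treated arrays ran between -4.10 and 13.9. Anti-PD-1 replicate 1 lay farthest out on the second component (16.8), and TMZ replicate 2 on the third (20.9). The mean signal of 14 neuron markers was 10.02 to 10.10 on TMZ, 10.08 to 10.11 on Anti-PD-1, 10.02 to 10.08 on Combination and 9.96 to 10.06 on Control arrays. Glioma and neural progenitor markers (10 genes) lay at 6.98 to 7.16, 6.90 to 7.06 and 7.03 to 7.10 in the same order of treatments, and at 7.13 to 7.42 on Control arrays. Neuron markers were bright on every array, and the labels do not give the share of brain tissue in a sample. In such bulk RNA, fewer cells of a type cannot be told apart from less RNA per cell.

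**Figure D1:**
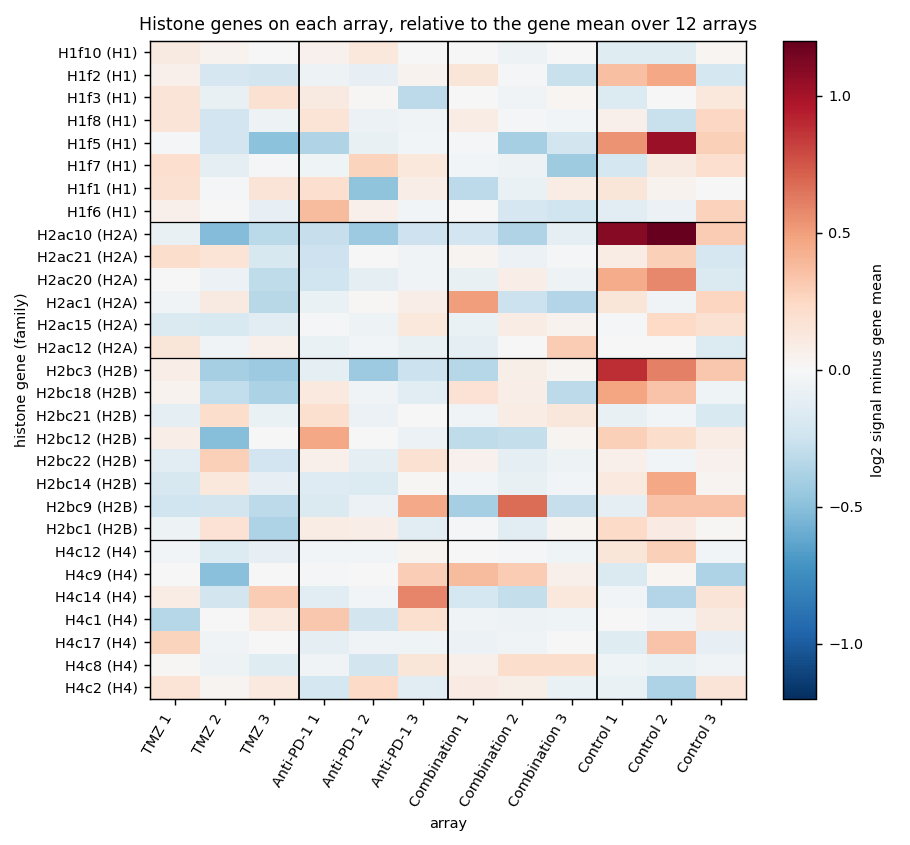
Log2 signal of each of the 29 histone genes (rows, grouped by family and ordered by brightness) on each of the 12 arrays (columns), relative to that gene's own mean across the arrays. Red is above and blue below that mean; H2ac10, H2bc3 and H1f5 are darkest red on Control replicates 1 and 2, and paler on Control replicate 3.

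The comparison of each treatment with Control asks how histone gene expression in the tumours stood after either agent or both. Signals of H2ac10, H2bc3 and H1f5, one gene each of H2A, H2B and H1, were 1.60 to 2.29 times lower in every treated group. H2ac10 after Anti-PD-1 was the only one of the 29 to pass the threshold, an adjusted p under 0.05 over all 22180 genes in limma. H2ac20 and H2bc18 were lower by less, and H2ac21 and H2bc21 were at or above their Control signals in at least 1 comparison. The germ-cell forms differed from Control by -0.21 to 0.11 on the log2 scale. Of these 5 genes, 5, 2 and 5 were below 0 after TMZ, Anti-PD-1 and Combination. H4 genes lay on both sides of their Control signals.

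H2ac10 (probe set 17285819, chromosome 13, 23533875 to 23534378) encodes a replication-dependent H2A. It had log2 signals of 7.81, 7.39 and 7.58 on the TMZ arrays, 7.63, 7.47 and 7.66 on the Anti-PD-1 arrays, and 7.68, 7.55 and 7.80 on the Combination arrays, against 9.003, 9.12 and 8.21 on the Control arrays. All 9 treated arrays lay below all 3 Control arrays, and Control replicate 3 was the nearest to them. H2ac10 fell 2.29-fold after Anti-PD-1, with a mean of 7.59 ± 0.10 against 8.78 ± 0.50 in Control (SD, n = 3 each; log2 difference -1.19 ± 0.20 SE, adjusted p = 0.0432). The differences after TMZ (-1.18 ± 0.20, adjusted p = 0.0566) and Combination (-1.10 ± 0.20, adjusted p = 0.119) were of similar size and missed the threshold. The Anti-PD-1 call was lost in 10 of the 12 fits that left out 1 array, with an adjusted p of 0.185 without Control replicate 1, 0.170 without Control replicate 2 and 0.131 without Anti-PD-1 replicate 1 (log2 difference -1.21). Without Control replicate 3 the adjusted p was 0.000618, at a log2 difference of -1.48.

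H2bc3 (probe set 17285863, chromosome 13, 23746734 to 23747223) is a replication-dependent H2B. Its signals were 5.82, 5.34 and 5.30 after TMZ, 5.62, 5.31 and 5.48 after Anti-PD-1, and 5.40, 5.81 and 5.78 after Combination, against 6.63, 6.35 and 6.07 in Control. No treated array reached the lowest Control array. The log2 differences were -0.86 ± 0.17, -0.88 ± 0.17 and -0.68 ± 0.17 (adjusted p = 0.118, 0.0586 and 0.193), so that none passed.

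H1f5 (H1.5, probe set 17291005, chromosome 13, 21779832 to 21780625) is a replication-dependent linker histone, which binds where DNA enters and leaves the nucleosome. It had signals of 4.03, 3.82 and 3.55 on TMZ, 3.68, 3.96 and 4.01 on Anti-PD-1 and 4.02, 3.65 and 3.82 on Combination arrays, against 4.58, 5.08 and 4.33 on Control arrays. Here too the groups did not overlap in any of the 3 comparisons. The log2 differences were -0.86 ± 0.18, -0.78 ± 0.18 and -0.83 ± 0.18, with adjusted p of 0.126, 0.0947 and 0.153. The gene's mean signal, 4.04, lay among the lowest 25% of all genes.

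**Figure D2:**
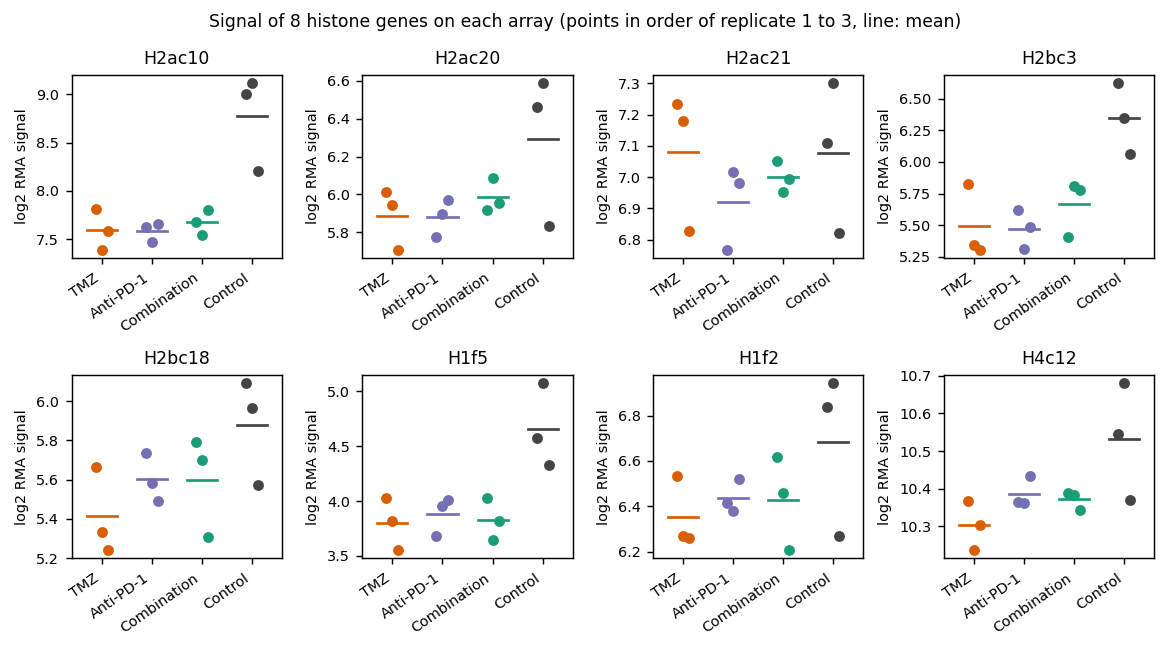
Log2 RMA signal of 8 histone genes on each array (points, in order of replicate) with the group mean (line); each panel has its own vertical scale. In H2ac10, H2bc3 and H1f5 all treated arrays lie below all Control arrays, whereas in H2ac20, H2ac21, H2bc18 and H1f2 the groups overlap.

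Within H2A, the remaining genes stood closer to Control. H2ac20, a replication-dependent gene of the chromosome 3 cluster, read 6.02, 5.94 and 5.71 after TMZ, 5.77, 5.90 and 5.97 after Anti-PD-1 and 5.92, 6.09 and 5.95 after Combination, against 6.46, 6.59 and 5.84 in Control. Control replicate 3 lay among the treated arrays, below 7 of the 9, and the other Control arrays lay above all of them. The log2 differences were -0.41, -0.41 and -0.31 (SE 0.16 for each), with adjusted p of 0.377, 0.286 and 0.495. H2ac15 was at -0.29 ± 0.08 after TMZ, where its signals of 2.15, 2.14 and 2.20 lay under the Control signals of 2.30, 2.56 and 2.502 (adjusted p = 0.215), and at -0.12 and -0.11 after Anti-PD-1 and Combination. A signal this dim is near the array's floor of 1.24. H2ac21 was the member with 2 probe sets of its own, and these disagreed in brightness, with means of 7.02 and 3.28; on the brighter the differences were 0.00, -0.16 and -0.08, and on the dimmer -0.12, -0.07 and -0.04. H2ac12 and the germ-cell form H2ac1 lay between -0.20 and 0.12 in all 3 comparisons.

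Within H2B, H2bc18 of the chromosome 3 cluster had signals of 5.67, 5.33 and 5.24 after TMZ, 5.74, 5.58 and 5.49 after Anti-PD-1 and 5.79, 5.70 and 5.31 after Combination, against 6.09, 5.97 and 5.57 in Control. The means of all treated groups were lower, but Control replicate 3 lay inside their range. Its differences were -0.46 ± 0.16 (adjusted p = 0.317), -0.27 ± 0.16 and -0.28 ± 0.16. H2bc12, the head-to-head partner of H2ac12, was at -0.34, -0.07 and -0.38, while H2ac12 itself was at 0.11, -0.01 and 0.12. With a mean signal of 2.07, H2ac12 lay near the array's floor of 1.24, so the partners cannot be compared on these values. The H2bc12 difference after TMZ was -0.15 without TMZ replicate 2. The dim genes H2bc14 (-0.26, -0.31 and -0.26) and H2bc9 (-0.45, -0.12 and -0.19) were also lower in all 3 comparisons, and no p of theirs passed after adjustment. H2bc22 was at -0.05, 0.02 and -0.07, and the germ-cell form H2bc1 at -0.20, -0.10 and -0.15. H2bc21, whose human counterpart also makes a longer polyadenylated message, was at 0.11, 0.14 and 0.16 (SE 0.10 for each), on the other side of Control.

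Among the linker histones, H1f2 (H1.2), the replication-dependent form with the highest H1 signal, had 6.53, 6.27 and 6.26 after TMZ, 6.41, 6.38 and 6.52 after Anti-PD-1 and 6.62, 6.46 and 6.21 after Combination, against 6.84, 6.94 and 6.27 in Control. As in H2ac20, only Control replicate 3 overlapped the treated arrays. Its differences were -0.33, -0.25 and -0.26, each with an SE of 0.16. H1f10, the form made outside S phase, stood on the other side: its signals were 7.74, 7.68 and 7.64 on TMZ, 7.68, 7.76 and 7.63 on Anti-PD-1 and 7.63, 7.58 and 7.64 on Combination arrays, against 7.49, 7.49 and 7.66 on Control arrays. The differences of 0.14 ± 0.07, 0.14 ± 0.07 and 0.07 ± 0.07 missed the threshold (adjusted p = 0.458, 0.369 and 0.74). H1f1 and H1f3, both somatic, and the germ-cell forms H1f6 (H1t), H1f7 (H1T2) and H1f8 (of the oocyte) lay between -0.21 and 0.11.

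The H4 genes gave no common direction. H4c12, the brightest member, read 10.37, 10.24 and 10.30 on TMZ, 10.37, 10.36 and 10.43 on Anti-PD-1 and 10.39, 10.38 and 10.34 on Combination arrays, against 10.54, 10.68 and 10.37 on Control arrays. TMZ arrays lay just below the lowest Control array, and the other treated groups overlapped Control. The differences were -0.23 ± 0.08, -0.14 ± 0.08 and -0.16 ± 0.08 (adjusted p = 0.3, 0.437 and 0.452). H4c9 had 5.44, 4.94 and 5.43 after TMZ, 5.41, 5.43 and 5.73 after Anti-PD-1 and 5.82, 5.74 and 5.498 after Combination, against 5.27, 5.46 and 5.07 in Control. The Combination arrays lay above all Control arrays, with a difference of 0.42 ± 0.15 (adjusted p = 0.333), beside 0.01 after TMZ and 0.26 after Anti-PD-1. H4c8 was 0.22 ± 0.09 higher after Combination (adjusted p = 0.384), at a mean signal of 2.55. H4c14 was at 0.13, 0.22 and -0.05, H4c2 at 0.20, 0.06 and 0.13, and H4c17 at 0.04, -0.10 and -0.07. H4c1 was at -0.10, 0.07 and -0.08; its Combination signals of 3.603, 3.58 and 3.59 lay just below the Control signals of 3.65, 3.604 and 3.76. All H4 genes encode the same protein. None of these differences passed the threshold, and H4c1, H4c2, H4c8 and H4c17 lay among the lowest 25% of all genes in signal. Whether the copies differed from each other was not tested.

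**Figure D3:**
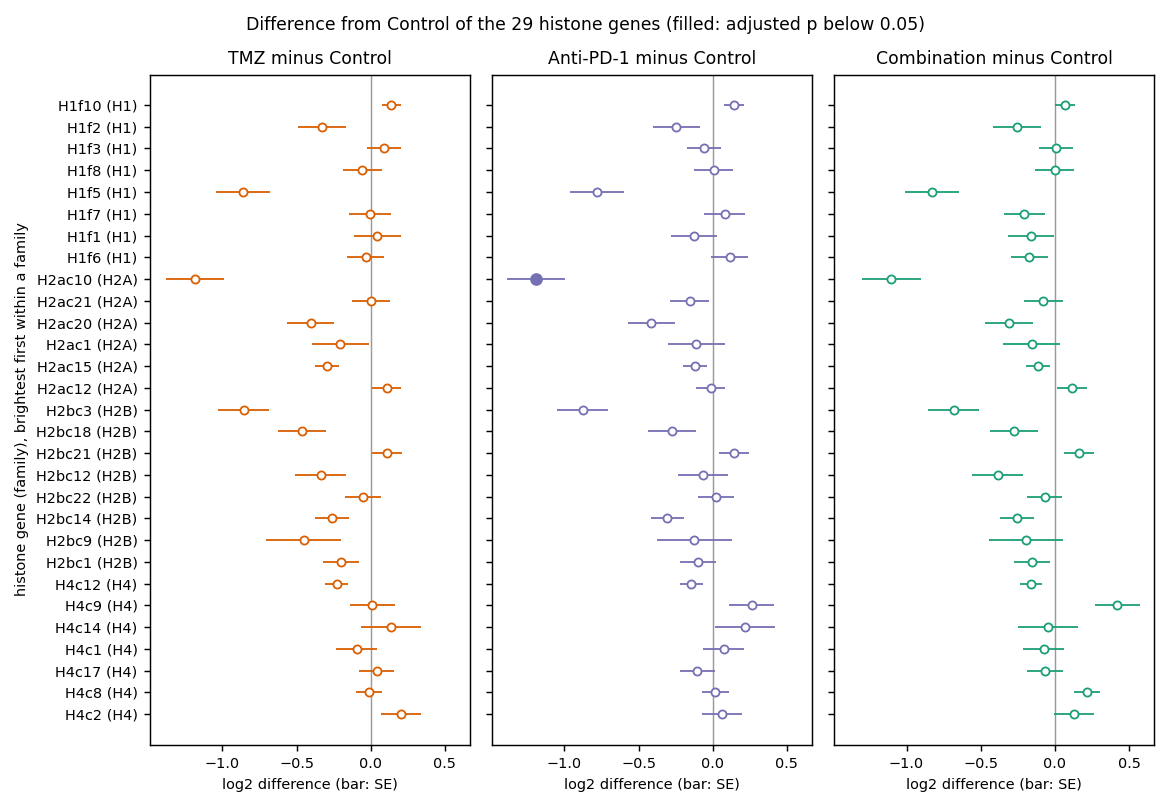
Log2 difference from Control (horizontal axis) of the 29 histone genes (vertical axis) after TMZ, Anti-PD-1 and Combination; circles are differences, bars are 1 standard error, and a filled circle marks an adjusted p below 0.05. H2ac10, H2bc3 and H1f5 lie farthest to the left in every panel, and H2ac10 after Anti-PD-1 is the 1 filled circle.

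Counted over all members, the share below 0 exceeded that of all genes in each comparison. After TMZ 19 of 29 were below 0, against 47.9% of all genes, with a median of -0.06 beside 0.01 for all genes. At an unadjusted p under 0.05, 8 were lower and 0 higher, where 5.78% of all genes were lower and 5.47% higher. For 7 genes all TMZ arrays lay below all Control arrays and for 0 above them, against 6.81% and 8.19% of all genes, and 0 passed after adjustment in limma (0.0812% of all genes were called lower and 0.018% higher). After Anti-PD-1 18 of 29 were below 0 (47.6% of all genes), with a median of -0.10 beside 0.01. There 5 were lower and 1 higher at an unadjusted p under 0.05 (6.79% and 6.7% of all genes), 4 lay apart on the lower side (8.33%), and 1 was called lower (0.212%). After Combination 22 of 29 were below 0 (49.8%), with a median of -0.15 beside 0.00. In it 5 were lower and 2 higher at an unadjusted p under 0.05 (6.18% and 5.43%), 6 lay apart below and 2 above Control (7.82% and 8.98%), and 0 were called, as 0% of all genes were. The 3 comparisons share the Control arrays and are not independent of each other, and no test of the members as a list was made.

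Read by role, a grouping drawn up after the values were seen, the larger differences were those of replication-dependent genes. Of these 23 genes, 14, 16 and 17 were below 0 after TMZ, Anti-PD-1 and Combination, with medians of -0.10, -0.12 and -0.11, and all members with an unadjusted p under 0.05 on the lower side were among them. Of the 5 germ-cell forms 5, 2 and 5 were below 0, with medians of -0.06, 0.01 and -0.15. Of these 5, 0 reached an unadjusted p under 0.05 against Control. Over all genes only 5.78%, 6.79% and 6.18% were lower and 5.47%, 6.7% and 5.43% higher at that level, so 0 of 5 says little. All 5 had mean signals (1.97 to 5.10) below that of the median gene (5.72), so role cannot be told apart from brightness in them. By family, the median differences of H2A were -0.25, -0.14 and -0.13, those of H2B -0.30, -0.11 and -0.22, those of H1 -0.02, -0.03 and -0.17, and those of H4 0.01, 0.06 and -0.05. By brightness, the 7 genes above the median gene had medians of -0.33, -0.25 and -0.26, against -0.04, -0.04 and -0.09 for the 22 at or below it. Whether the difference between the brighter and the dimmer members was one of the genes or of their probe sets was not tested.

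Leaving out Control replicate 3, an alternative listed for every array, moved the number of members called more than leaving out any other array. After TMZ and after Anti-PD-1, H1f5, H2ac10, H2ac20 and H2bc3 were then called lower, and after Combination H1f5, H2ac10 and H2ac20, while the calls over all genes numbered 363, 686 and 282. The log2 differences without that array were -1.47, -1.48 and -1.39 for H2ac10, -0.997, -1.02 and -0.82 for H2bc3, -1.03, -0.95 and -0.997 for H1f5, and -0.63, -0.64 and -0.54 for H2ac20. The number of members below 0 then stood at 19, 17 and 20. Control replicate 3 was labelled no differently from the other Control arrays, and its part in the full result is given here only by these values.

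Further histone signal lay on probe sets that the annotation assigns to several histone genes at once, which cannot be given to a single gene. There were 37, of which 3 pairs held identical values, leaving 34 distinct signals: 9 of H2A, 7 of H2B, 12 of H3, 5 of H4 and 1 shared by H1 and H2B. These were fitted with all 41345 probe sets, where 0 of the 34 passed in limma (lowest adjusted p = 0.121 after TMZ, 0.0994 after Anti-PD-1 and 0.211 after Combination). In that fit 0.00242%, 0.00484% and 0% of all probe sets were called.

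The shared H2A, H2B and H3 probe sets with mean signals above 7 all had lower means in the treated groups, but not all were apart from Control. Among them, an H2B probe set of 3 genes (mean signal 9.59) was at -0.21, -0.11 and -0.08 and overlapped Control in every comparison. One shared by 10 H2A genes read 8.40, 7.99 and 8.18 after TMZ, 8.08, 8.29 and 8.25 after Anti-PD-1 and 8.25, 8.27 and 8.27 after Combination, against 9.59, 9.59 and 8.74 in Control, with differences of -1.12, -1.10 and -1.04. One shared by 12 H2B genes read 9.24, 8.88 and 8.99, then 9.01, 9.04 and 9.04, then 9.17, 9.14 and 9.18 in the same order of treatments, against 10.26, 10.26 and 9.50 in Control, with differences of -0.97, -0.98 and -0.84. In these probe sets of 10 H2A and 12 H2B genes, every treated array lay below every Control array. Control replicate 3 stood between the other Control arrays and the treated ones. For H3, the core histone whose tail carries many of the known chromatin marks, the brightest shared probe set (8 genes) read 7.21, 6.78 and 7.08 after TMZ, 6.94, 7.20 and 7.001 after Anti-PD-1 and 7.13, 7.17 and 7.10 after Combination, against 8.06, 7.72 and 7.27 in Control. Its differences were -0.66, -0.64 and -0.55, again with no overlap. The largest difference was that of a dimmer H2A probe set (10 genes), which read 5.54, 3.88 and 5.09 after TMZ, 4.895, 5.38 and 5.01 after Anti-PD-1 and 5.53, 5.23 and 5.40 after Combination, against 6.89, 7.55 and 5.73 in Control. TMZ replicate 2 was its lowest array, and its differences were -1.89, -1.63 and -1.34. A shared H4 probe set (6 genes) was at -0.47, -0.41 and -0.39, whereas its single-gene relatives lay on both sides of 0.

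Over the 34 shared signals, 30, 28 and 26 were below 0 after TMZ, Anti-PD-1 and Combination, against 47%, 45.9% and 48.9% of all probe sets. Their medians were -0.19, -0.18 and -0.13. By family the medians were -0.44, -0.49 and -0.46 for H2A, -0.32, -0.36 and -0.22 for H2B, -0.13, -0.13 and -0.05 for H3, and -0.20, -0.21 and -0.23 for H4. In 12, 12 and 11 of them all treated arrays lay below all Control arrays, against 6.54%, 7.33% and 7.42% of all probe sets, and in 0, 0 and 3 all lay above them, against 8.33%, 10.1% and 8.91%. The 3 were 1 H2B signal (0.46) and 2 of H3 after Combination. Without Control replicate 3, an alternative for all probe sets that was chosen after seeing the data, 8, 8 and 6 of the 34 were called lower, where 0.653%, 1.68% and 0.491% of all probe sets were called. Genes overlap between these probe sets, and the H2A and H2B copies also share sequence with single-gene members, so these signals do not count as further genes.

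**Figure D4:**
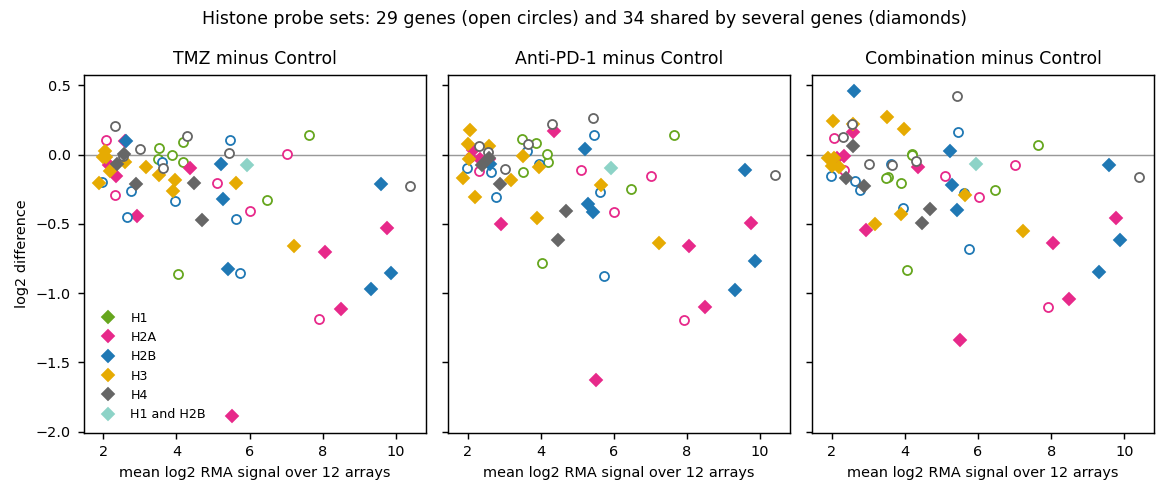
Mean log2 RMA signal over 12 arrays (horizontal axis) against log2 difference from Control (vertical axis) for the 29 histone genes (open circles) and the 34 distinct probe sets shared by several histone genes (diamonds), coloured by family, in 3 comparisons. The shared H2A and H2B probe sets with signals above 7 lie below 0 in all panels.

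Differences between the treated groups were small in these genes, and no member passed in limma in any of the 3 comparisons, where every adjusted p was 1 and 0% of all genes were called. Between Combination and TMZ, 11 members were below 0 (51.2% of all genes), and H2ac15 was 0.18, H4c8 0.23 and H4c9 0.41 higher in Combination at an unadjusted p under 0.05. Thus 3 were higher and 0 lower at that level, as 1.76% and 2.43% of all genes were, and the same 3 were those whose groups did not overlap (3.81% of all genes higher, 4.7% lower). Between Combination and Anti-PD-1, 16 were below 0 (52.2%). H4c8 was 0.20 higher and H1f6 0.28 lower in Combination, as 2.01% and 2.9% of all genes were higher or lower at that level, and 0 members lay apart (4.87% higher, 5.67% lower). Between TMZ and Anti-PD-1, 19 were below 0 (50.5%), and 0 reached an unadjusted p under 0.05 (2.39% of all genes lower, 2.11% higher). There 2 members lay apart below and 1 above (4.39% and 4.38%). For H2ac10 the Combination minus TMZ difference was 0.08, with a 95% interval of -0.35 to 0.51, and the Combination minus Anti-PD-1 difference 0.09 (-0.34 to 0.52), intervals that leave room for differences in either direction.

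The interaction asks whether Combination differed from the sum of the 2 single-agent differences. It was 1.27 ± 0.28 for H2ac10 (95% interval 0.67 to 1.88, adjusted p = 0.2), 1.05 ± 0.24 for H2bc3 (adjusted p = 0.232) and 0.81 ± 0.26 for H1f5 (adjusted p = 0.379). For each of these genes that sum was negative, so the positive sign means that the Combination difference was smaller in size than the sum. Of the 29, 11 were below 0 (53.8% of all genes), and 1 was lower and 5 were higher at an unadjusted p under 0.05 (4.27% and 4.65%). No member passed, where 0.00451% of all genes did, while without Control replicate 3, 2 members and 198 of the 22180 genes passed. In the F test across the 4 groups 0 members passed (lowest adjusted p = 0.116, for H2ac10), beside 0.00451% of all genes.

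Genes that make, process and carry histones were read from lists written from general knowledge. Of 18 genes of histone message processing and histone gene transcription, 0 passed against Control in limma. Their medians were -0.01, -0.04 and -0.03 after TMZ, Anti-PD-1 and Combination. At an unadjusted p under 0.05, 1, 0 and 0 were lower and 2, 0 and 1 higher. Over all genes 5.78%, 6.79% and 6.18% were lower and 5.47%, 6.7% and 5.43% higher at that level. Slbp, which binds the stem-loop, was at -0.10, -0.15 and -0.14, with signals of 6.87 to 6.98 on TMZ, 6.77 to 7.02 on Anti-PD-1 and 6.79 to 6.99 on Combination arrays, against 6.94 to 7.13 on Control arrays. Npat was at -0.01, -0.01 and 0.03, and Casp8ap2 (FLASH), a partner of Npat at histone locus bodies, at -0.10, -0.06 and -0.03. In these 3 genes the groups overlapped in every comparison.

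Of 21 histone chaperones, which hand histones to DNA, 12, 14 and 14 were below 0 after TMZ, Anti-PD-1 and Combination, and 0 passed. At an unadjusted p under 0.05, 4, 2 and 4 were lower and 0 higher. Over all genes 5.78%, 6.79% and 6.18% were lower at that level. Asf1b, an H3 and H4 chaperone of dividing cells, was at -0.41 ± 0.12, -0.48 ± 0.12 and -0.54 ± 0.12 (adjusted p = 0.242, 0.114 and 0.155). Chaf1b, a subunit of the replication-coupled assembly factor CAF-1, was at -0.25, -0.19 and -0.33, while its partner Chaf1a was at 0.04, 0.08 and 0.04. Nasp, which binds H1 and H3, was at -0.03, -0.08 and -0.06.

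Of 7 histone variants that the symbol rule leaves out, 0 passed. At an unadjusted p under 0.05, 3 were lower in each comparison, where 5.78%, 6.79% and 6.18% of all genes were. The variant genes H3f3a, H3f3b, H3f5 and H1f0 matched no gene tested and were not read, although the symbol H1f0 would fall under the rule. H2az2 is counted among the 7 but not described. H2ax, whose product is phosphorylated at DNA breaks, read 8.32, 8.10 and 8.30 after TMZ, 8.17, 8.44 and 8.32 after Anti-PD-1 and 8.45, 8.32 and 8.56 after Combination, against 8.90, 8.87 and 8.44 in Control. Its differences were -0.50 ± 0.12, -0.43 ± 0.12 and -0.29 ± 0.12 (adjusted p = 0.176, 0.16 and 0.394). H2az1, which marks promoters, was at -0.28, -0.36 and -0.36, and Cenpa, the H3 variant of centromeres, at -0.46, -0.51 and -0.41. Macroh2a1 and Macroh2a2, variants of condensed chromatin, and H2aj, another H2A variant, lay between -0.02 and 0.20.

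Genes of DNA replication and of cell division were also read, and most were lower in the treated groups. In the S phase list 28, 27 and 28 of 28 genes were below 0, against 47.9%, 47.6% and 49.8% of all genes, with medians of -0.32, -0.37 and -0.33. After TMZ Ccna2 (cyclin A) fell by 1.19 and Dtl by 0.999 on the log2 scale (adjusted p = 0.0402 for both). After Anti-PD-1 Ccna2 fell by 1.39 (adjusted p = 0.0183) and Rrm1, of ribonucleotide reductase, by 0.43 (adjusted p = 0.05, under the threshold before rounding), and after Combination 0 passed. In the mitosis list all 17 genes were below 0 in each comparison, with medians of -0.77, -0.78 and -0.77. Of these genes 2, 7 and 0 passed. Over all genes 0.0812%, 0.212% and 0% were called lower. Mean signals of the S phase list were 5.21 to 5.28 on TMZ, 5.22 to 5.29 on Anti-PD-1 and 5.21 to 5.34 on Combination arrays, against 5.73, 5.79 and 5.46 on Control replicates 1, 2 and 3. As in H2ac10, Control replicate 3 lay between the other Control arrays and the treated ones.

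Markers of other cell types of the tumour and brain were read in the same way, and 1 of them passed the threshold. Of 9 microglia markers 9, 9 and 6 were below 0 after TMZ, Anti-PD-1 and Combination, with medians of -0.22, -0.10 and -0.10. At an unadjusted p under 0.05, 5, 2 and 2 were lower, where 5.78%, 6.79% and 6.18% of all genes were. The mean microglia signals were 6.69 to 6.98 on TMZ, 6.85 to 6.96 on Anti-PD-1 and 6.91 to 7.001 on Combination arrays, against 6.96 to 7.11 on Control arrays. Of 8 endothelium markers 8, 7 and 8 were above 0, with medians of 0.31, 0.11 and 0.18. At an unadjusted p under 0.05, 4, 3 and 2 were higher, where 5.47%, 6.7% and 5.43% of all genes were. The mean endothelium signals were 6.77 to 7.36, 6.81 to 6.92 and 6.86 to 6.94 in the same order of treatments, against 6.65 to 6.77 on Control arrays. TMZ replicate 2 was the highest array. Of 10 glioma and neural progenitor markers 8, 8 and 8 were below 0, with medians of -0.19, -0.23 and -0.13. In that list 4, 5 and 3 were lower and 1, 0 and 0 higher at an unadjusted p under 0.05. Over all genes 5.78%, 6.79% and 6.18% were lower at that level. Below 0 were also 6, 6 and 6 of 8 T cell markers, 8, 5 and 8 of 9 oligodendrocyte markers, 5, 6 and 6 of 9 astrocyte markers and 4, 4 and 2 of 5 B cell markers. Few were below 0 among neuron markers (3, 1 and 4 of 14) and neutrophil markers (1, 2 and 2 of 6). The 1 that passed was Myc, of the glioma and progenitor list, with a fall of 0.67 on the log2 scale after Anti-PD-1 (adjusted p = 0.0432). The part of the S phase, mitosis and cell type lists in the histone differences was not tested.

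**Figure D5:**
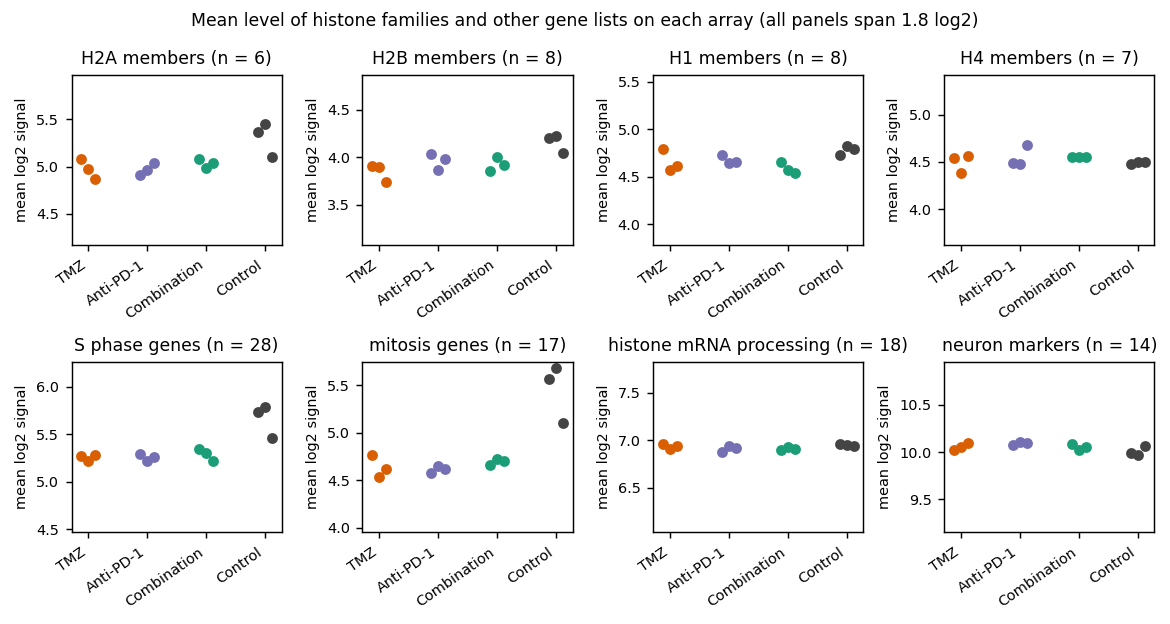
Mean log2 signal on each array (points) of the 4 histone families and of 4 other gene lists, by group; every panel spans 1.8 log2 units. H2A, S phase and mitosis genes lie highest on Control replicates 1 and 2 and lower on Control replicate 3, while the histone mRNA processing and neuron lists lie nearly level.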

How the data were processed

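Total RNA of the tumour mass was hybridised to whole-transcript mouse gene arrays. Per the submitters' processing notes, the authors made the deposited log2 signals with RMA in Affymetrix Expression Console (versions not given in the sources used here), which corrects background, quantile normalises arrays together and summarises each probe set. The table held 41345 probe sets on 12 arrays, with values from 1.24 to 13.14. Arrays have no read depth, and 3 per group limit the precision.

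Groups came from the labels. Of the probe sets, 23521 had 1 gene symbol, 1814 had several and 16010 were not listed in the platform annotation. The brightest probe set by mean over all arrays stood for a gene (22180 genes, no filter). limma 3.58.1 in R 4.3.3 fitted a mean per group to all 12 arrays (8 residual degrees of freedom). Two-sided p-values were adjusted by Benjamini-Hochberg across the genes of each comparison, and 0.05 was the threshold. The fit was tested on simulated data. The labels do not say whether replicate numbers pair the arrays, and the fit left them unpaired. Deviations of same-numbered arrays correlated between -0.16 and 0.16, and those of other arrays between -0.27 and 0.20. Such correlations cannot settle whether arrays shared a batch. Alternatives changed the samples fitted, block, variance trend, array weights, brightness filter, probe sets, centring and quantile step, and left out each array.

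Members and lists were chosen with earlier results of these data known. All 29 members are named, the brightest and those with the largest differences by array. Of the other lists, some fixed genes are named, and those past the threshold in the S phase and cell type lists. Mitosis genes past the threshold are only counted. Gene coordinates and promoters are RefSeq's (GRCm38.p6). The 37 shared probe sets were fitted with all probe sets.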

Additional observations from a re-analysis of the deposited data

How the results depend on the processing

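The direction of the H2ac10, H2bc3 and H1f5 differences from Control was the same under every alternative run, with log2 differences of H2ac10 between -1.47 and -1.01 for TMZ, -1.48 and -1.02 for Anti-PD-1 and -1.39 and -0.93 for Combination. The side of the threshold was not: H2ac10 passed in 6, 10 and 4 of 23 alternatives, with adjusted p from 0.000967 to 0.334, from 0.000618 to 0.193 and from 0.00105 to 0.359. Cause was not tested where a call was lost or gained, except that fewer arrays or more features tested enter by construction.

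Counts below are of genes called, first over all genes and then among the histone genes. The full fit gave 22 and 0 for TMZ, 65 and 1 for Anti-PD-1, 0 and 0 for Combination, 1 and 0 for the interaction and 1 and 0 for the F test. With only the 2 groups compared, TMZ gave 0 over all genes, and Anti-PD-1 gave 0 and 0. With the replicate block, TMZ gave 4 over all genes, Anti-PD-1 gave 20 and 0, and the F test gave 5; 4 of 12 arrays correlated best with an array of their own number. With a variance trend the counts were 113 and 3 for TMZ, 381 and 3 for Anti-PD-1, 42 and 1 for Combination, 12 over all genes for the interaction, and 90 and 2 for the F test. With array weights they were 38 and 1 for TMZ, 260 and 2 for Anti-PD-1, 17 and 1 for Combination (member median -0.11) and 9 over all genes for the F test. Testing only genes above the median gene, which keeps 7 members, gave 14 and 1 for TMZ, 205 and 2 for Anti-PD-1, 3 over all genes for Combination, 0 for the interaction and 2 for the F test. The member medians were then -0.33, -0.25 and -0.26 for TMZ, Anti-PD-1 and Combination, 0.074 for Combination minus TMZ, 0.078 for Combination minus Anti-PD-1, 0.0085 for TMZ minus Anti-PD-1 and 0.32 for the interaction. Testing only genes above the lowest 25% keeps 12 members. Anti-PD-1 then gave 145 and 2, Combination gave 2 over all genes, the interaction 0 and the F test 3. The member medians under that filter were -0.22 for TMZ, -0.15 for Anti-PD-1 and 0.19 for the interaction. With all probe sets tested, TMZ gave 1 over all, Anti-PD-1 gave 2 and 0, and the interaction and the F test 0. Averaging a gene's probe sets gave 4 in the F test and a member median of 0.12 in the interaction, centring arrays on their median gave 4 in the F test, and a second quantile step gave 9 over all genes for TMZ.

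Leaving out each array in turn gave 0 to 363 calls over all genes and 0 to 4 among members for TMZ, 1 to 686 and 0 to 4 for Anti-PD-1, 0 to 282 and 0 to 3 for Combination, 0 to 198 and 0 to 2 for the interaction, and 0 to 245 and 0 to 3 for the F test. The highest of each came without Control replicate 3. Member medians ran from -0.136 to -0.0562 for TMZ, from -0.10 to -0.06 for Anti-PD-1, from -0.153 to -0.0858 for Combination, from 0.01 to 0.06 for Combination minus TMZ, from -0.03 to 0.03 for Combination minus Anti-PD-1, from -0.101 to 0.0163 for TMZ minus Anti-PD-1 and from 0.0415 to 0.152 for the interaction. With all probe sets tested and Control replicate 3 left out, chosen after seeing the data, the counts were 270 and 2 for TMZ, 695 and 4 for Anti-PD-1, 203 and 1 for Combination, 119 and 1 for the interaction and 132 and 1 for the F test.

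Over 357 differences of named genes and 7768 values under alternatives, 7469 kept their side of the threshold, 173 lost and 126 gained a call, and 277 had another sign, none of them past the threshold in the full fit. No call was reversed. Dim signal limits what these arrays can show for the 17 members in the lowest 25% of genes.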
